A study of Equus caballus with 4 samples.

Results

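The 10 genes described here belong to Notch signalling. They are the ligands *DLL1*, *JAG1* and *JAG2*, the receptors *NOTCH1*, *NOTCH2* and *NOTCH3*, the target genes *HES1*, *HEY1* and *HEYL*, and the inhibitor *NUMB*. A probe was taken for a gene when the gene name in the array files, in upper case, was one of these 10 symbols. By this rule 7 of the 10 genes had a probe, of 15256 gene symbols with a probe on the array. Of these 7, 5 were bright enough to be tested, among 9962 tested symbols. The 7 genes had 12 of the 43603 probes, and 10 of the 12 were tested. *NOTCH1*, *NOTCH3* and *JAG2* had no probe under their symbol, but the description column of the files named 1 probe for each, and these are reported separately as probes outside the rule.

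Differentiating equine satellite cells (ESC), the stem cells of skeletal muscle, came from the *semitendinosus* of 6-month-old colts. After 2 days in differentiation medium they were given HMB, a metabolite of leucine, for 24 h and were harvested on day 3, while control cells stayed in the same medium without HMB. RNA of HMB-treated cells (Cy5) and of control cells (Cy3) was hybridised together on each of 4 two-colour arrays of 1 slide. The dose is 50 µg in the sample labels and 50 µM in the paper. A description field calls the treated cells GO-treated, whereas the titles and the paper name HMB, which was followed. Since the dyes were not exchanged on any array, an effect of HMB and a preference of a probe for a dye cannot be told apart. Each culture gave cells to both a treated and a control plate, but the colts behind each array are not stated, nor is whether both channels of an array share a colt, so the *P* values measure the spread between these 4 arrays.

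Notch receptors sit in the cell membrane and are cut when a ligand on a neighbouring cell binds them. The freed inner part enters the nucleus, where it joins RBPJ and a Mastermind protein and switches on genes of the HES and HEY families, which encode transcriptional repressors. In skeletal muscle the pathway is known for keeping satellite cells quiescent and for holding back the differentiation of myoblasts, and NUMB is known as an inhibitor of the receptors.

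Each value is the log2 of the ratio of HMB over control on an array, after the authors' dye normalisation, so that a positive value stands for a higher signal in HMB-treated cells. Means are given ± SD over the 4 arrays. The mean of a probe was tested against 0 with limma, and the adjusted *P* takes in all 27383 tested probes, with a threshold of 0.05. To be tested, a probe had to be well above background on all 4 arrays in the same channel. Between 63.5 and 66.9% of the spots were well above background in Cy3 and between 64.2 and 66.5% in Cy5, and the number of arrays limits the precision. The ratios of any 2 arrays had a Pearson correlation across probes, which do not replicate each other, of between 0.540 (arrays 1 and 4) and 0.754 (arrays 2 and 3). In all, 6257 probes passed the threshold, 3071 higher and 3186 lower in HMB-treated cells. There were 2569 without array 2, 2729 without array 3 and 768 with a test of each probe alone (8435 before adjustment, against 10546 with limma), so the shares of all genes given as a reference depend on the arrays and the test too. Thus 49.1% of them were higher, a share that became 59.2% when lowess was left out and each array was centred on its median ratio, 29.9% with the channels taken as separate samples and 36.3% without array 2.

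Of the 5 tested genes, *DLL1* was lower and *NOTCH2* higher in HMB-treated cells past the threshold, and *JAG1*, *HES1* and *HEY1* were not past it. This is 2 of 5 genes, where 22.7% of all tested genes passed the threshold, 11.2% lower and 11.5% higher. *NOTCH2* passed the filter on dim probes only through the HMB channel, so the filter favoured a higher value. Neither the count nor the median of the 5 genes therefore supports a statement on the pathway. The median log2 ratio of the 5 genes was 0.03, as was that of all tested genes, and the median of the 5 turned to -0.01 without lowess.

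**Figure D1:**
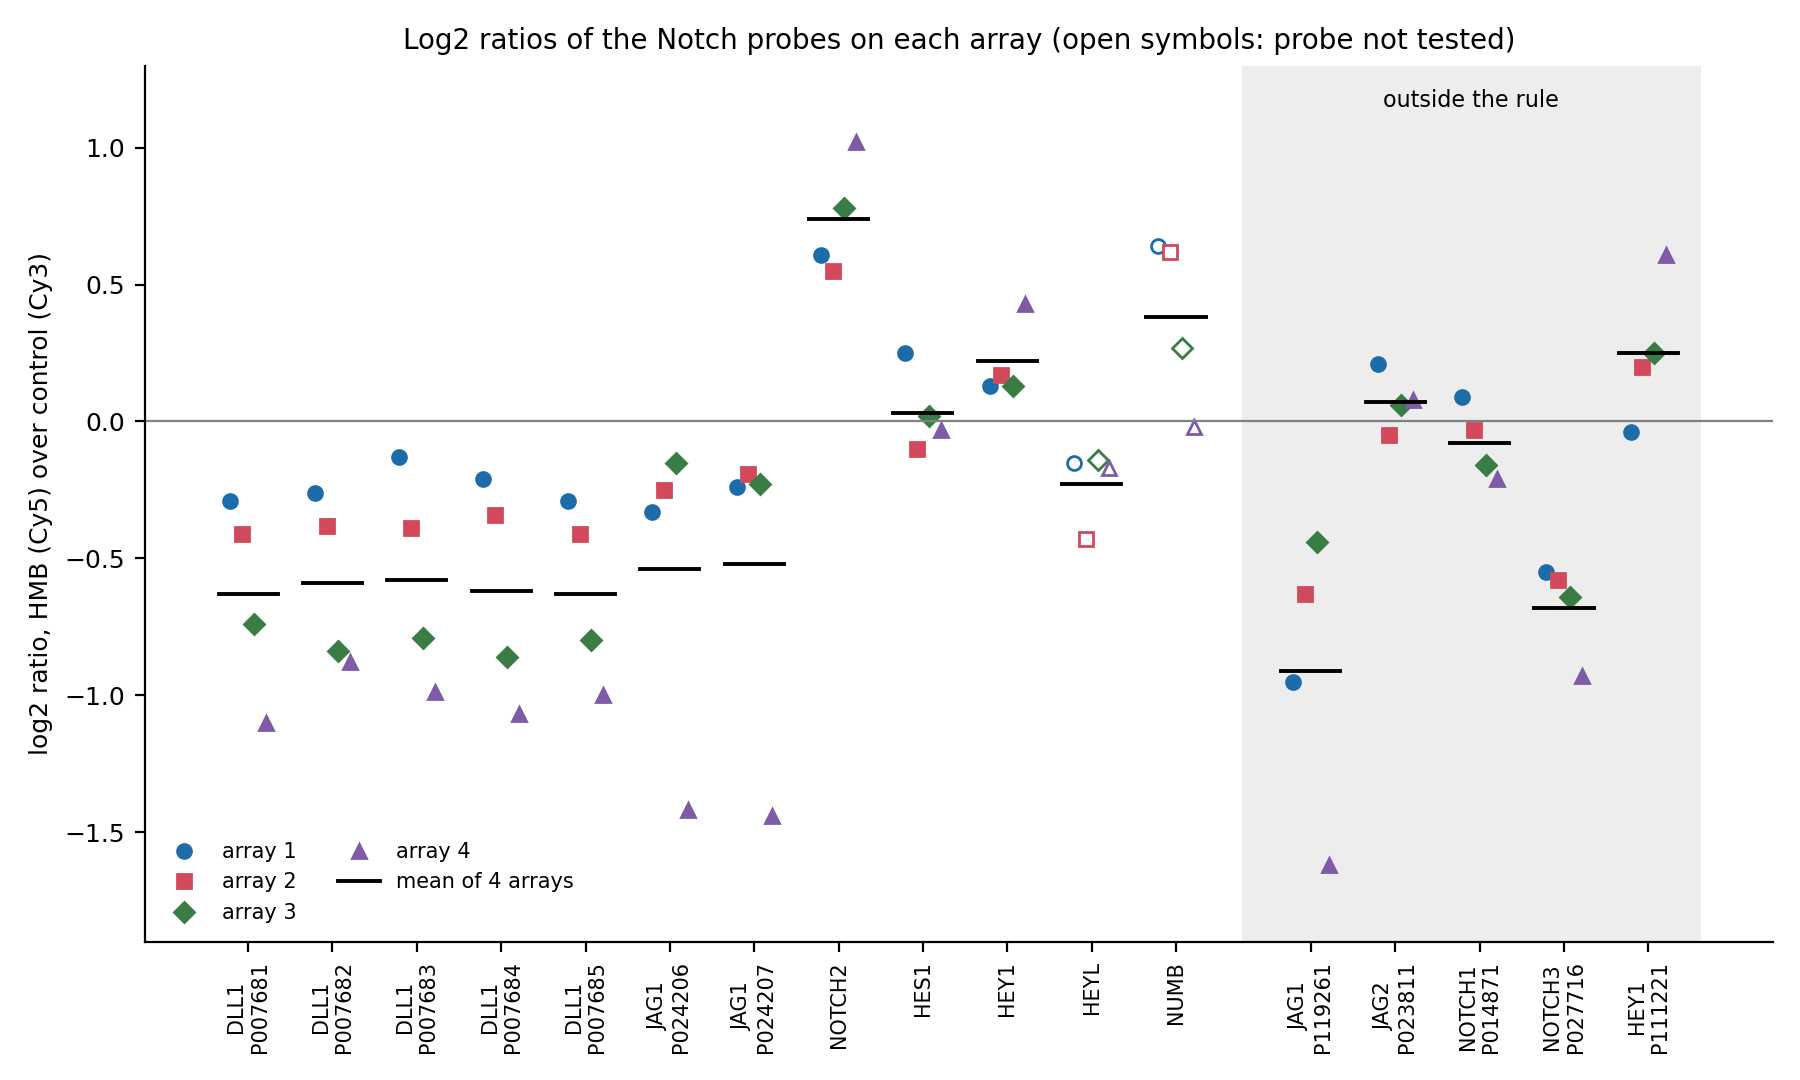
Log2 ratio of HMB over control (vertical axis) for each probe of the Notch genes (horizontal axis), with 1 symbol an array and a bar at the mean of 4 arrays. Open symbols are probes that were too dim to be tested and the shaded probes lie outside the naming rule. The 5 probes of *DLL1* lie below 0 on all 4 arrays, *NOTCH2* lies above 0 on all 4, and array 4 (triangles) stands far below the others for *JAG1*.

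Among the ligands, *DLL1* (Delta-like 1, a membrane ligand that activates Notch receptors on adjacent cells) was read by 5 probes of the same transcript on chromosome 31. The first and the last of them are printed to show how little they differ, with capitals for the 56 bases that all 5 share. They lie at chr31:504079-504138 and chr31:504075-504134 of EquCab1, plus strand.
A_69_P007681: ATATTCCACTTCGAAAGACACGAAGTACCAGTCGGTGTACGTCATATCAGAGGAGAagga
A_69_P007685: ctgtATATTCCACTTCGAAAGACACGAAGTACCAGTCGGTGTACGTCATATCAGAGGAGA
Because each probe is shifted by 1 base from the next, the 5 probes are repeated readings of the same stretch and not independent evidence.

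The log2 ratios of A_69_P007681, the *DLL1* probe of highest mean intensity, were -0.29, -0.41, -0.74 and -1.10 on arrays 1 to 4. All 4 were lower in HMB-treated cells, with the smaller differences on arrays 1 and 2 and the larger on arrays 3 and 4. Its processed signal was 212, 199.8, 241 and 304 in control cells and 174, 151, 144 and 142 in HMB-treated cells. The highest HMB signal lay below the lowest control signal, so the groups did not overlap. The share of all tested genes without overlap was not counted, so this is not read as particular to *DLL1*. The mean log2 ratio was -0.63 ± 0.36 (SE 0.14, limma adjusted *P* = 0.0232), a 1.55-fold lower signal. All 5 probes were past the threshold, with means from -0.63 to -0.58 and limma adjusted *P* from 0.0189 to 0.0351. The call was lost without array 3 (-0.60, limma adjusted *P* = 0.0839), with no filter on dim probes (limma adjusted *P* = 0.111) and with a test of each probe alone (adjusted *P* = 0.148), which is named in the study's supplement and not in its methods section.

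*JAG1* (Jagged 1, another membrane ligand) had 2 probes by the rule, at chr22:13191051-13191110 and chr22:13191011-13191070, plus strand. They are printed with capitals for the 20 bases where they overlap.
A_69_P024206: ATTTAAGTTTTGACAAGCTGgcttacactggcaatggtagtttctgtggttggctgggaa
A_69_P024207: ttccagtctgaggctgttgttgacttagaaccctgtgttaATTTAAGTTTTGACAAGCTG
The ratios of A_69_P024206 were -0.33, -0.25, -0.15 and -1.42 on arrays 1 to 4. HMB-treated cells had the lower signal on every array, but array 4 lay far below the other 3. In control cells the signal was 322, 300.0, 157 and 177, and in HMB-treated cells it was 256, 252, 142 and 66.3. The groups overlapped, since arrays 1 and 2 were brighter than arrays 3 and 4 in both channels. The mean was -0.54 ± 0.59 and did not pass the threshold (limma adjusted *P* = 0.116). Without array 4 it was -0.24 (limma adjusted *P* = 0.0635). The overlapping probe gave -0.24, -0.19, -0.23 and -1.44, with a mean of -0.52 ± 0.61 (limma adjusted *P* = 0.127), and thus the same picture.

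Another *JAG1* probe has no gene name in the files and is tied to *JAG1* by its description. It starts 1539 bases away, at chr22:13192590-13192649, plus strand, and is printed because it shares no run with the others and its call differs from theirs.
A_69_P119261: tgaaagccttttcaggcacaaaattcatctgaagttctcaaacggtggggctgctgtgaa
Its ratios were -0.95, -0.63, -0.44 and -1.62, lower in HMB-treated cells on all 4 arrays and again lowest on array 4. The mean of -0.91 ± 0.52 passed the threshold (limma adjusted *P* = 0.0196), a 1.88-fold lower signal. It did not pass without array 1 (-0.90, limma adjusted *P* = 0.0631), with the channels taken as separate samples (limma adjusted *P* = 0.247), with no filter on dim probes (limma adjusted *P* = 0.108) or with the per-probe test (adjusted *P* = 0.145). The *JAG1* probes thus had the same direction on every array and lay on both sides of the threshold.

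*JAG2* (Jagged 2) was named only in the description of A_69_P023811, whose 60 bases lie on chromosome 24 in pieces spread over 326 bases. The ratios were 0.21, -0.05, 0.06 and 0.08, on both sides of 0. Their mean was 0.07 ± 0.11 (limma adjusted *P* = 0.46), and it became -0.06 without lowess, so that no direction can be given.

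The receptor *NOTCH2* had 1 probe, on which the only higher call among the 10 genes rests. The log2 ratios were 0.61, 0.55, 0.78 and 1.02 on arrays 1 to 4, all of them higher in HMB-treated cells. The signal was dim, at 15.6, 20.3, 13.5 and 17.4 in control cells and 23.9, 29.6, 23.2 and 35.3 in HMB-treated cells. The lowest HMB signal lay above the highest control signal, so the groups did not overlap. The filter, passed only through the HMB channel, favoured this, and the share of all tested genes without overlap was not counted. HMB-treated cells were well above background on all 4 arrays, and control cells on array 2 only. The mean log2 ratio was 0.74 ± 0.21 (SE 0.09, limma adjusted *P* = 0.00471), and the call was lost with the per-probe test (adjusted *P* = 0.0738).

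Where a channel is not well above background on every array, its level is only bounded. A floored fold is then given, the mean of the brighter channel over that of the dimmer one. For each array the dimmer channel was set to its own signal or, if that was higher, to the dimmest signal of any probe that still counted as well above background. This was done after the channels were brought to a common intensity scale across arrays. That limit is lenient and not the probe's own, so a floored fold is not a strict lower bound. Before scaling, the *NOTCH2* control signal on array 3 (13.5) lay above the limit (13.42) without counting as well above background. Floored folds hold for the authors' background correction and normalisation only. Smaller differences were found after normexp with loess and, for *NOTCH2*, also without lowess. The floored folds do not exclude dye bias. For *NOTCH2* the floored fold was 1.64, higher in HMB-treated cells, beside 1.67 without a floor. The size depended on the processing, with a mean log2 ratio of 0.27 after normexp background correction with loess and 0.48 without lowess. The former setting changed the background correction and the normalisation at once, so the step that moved the size was not tested.

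*NOTCH3* was named only in the description of a probe that lies in pieces over 1060 bases of unplaced sequence. It is printed because it is the receptor probe that was lower past the threshold.
A_69_P027716: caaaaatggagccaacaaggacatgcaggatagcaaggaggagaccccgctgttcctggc
Its ratios were -0.55, -0.58, -0.64 and -0.93. The 4 arrays had the same direction, and array 4 was the lowest. The signal was 31.3, 29.9, 26.7 and 23.4 in control cells and 21.3, 19.9, 17.1 and 12.3 in HMB-treated cells, with no overlap. How many of all tested genes had no overlap was not counted. Control cells were well above background on all 4 arrays and HMB-treated cells on arrays 1, 2 and 3. The mean was -0.68 ± 0.17 (limma adjusted *P* = 0.00435), and the floored fold was 1.46, lower in HMB-treated cells. The call was lost with the per-probe test (adjusted *P* = 0.0663). As with *NOTCH2*, the size moved with the processing, to -0.30 after normexp with loess and to -0.91 without lowess. The filter favoured a lower value for this probe, since only its control channel passed on all 4 arrays.

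*NOTCH1*, likewise known only from a description (A_69_P014871), gave 0.09, -0.03, -0.16 and -0.21. Array 1 was higher and the other 3 lower in HMB-treated cells, all close to 0. Neither channel was dim on any array, and the mean of -0.08 ± 0.14 was not past the threshold (limma adjusted *P* = 0.474).

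**Figure D2:**
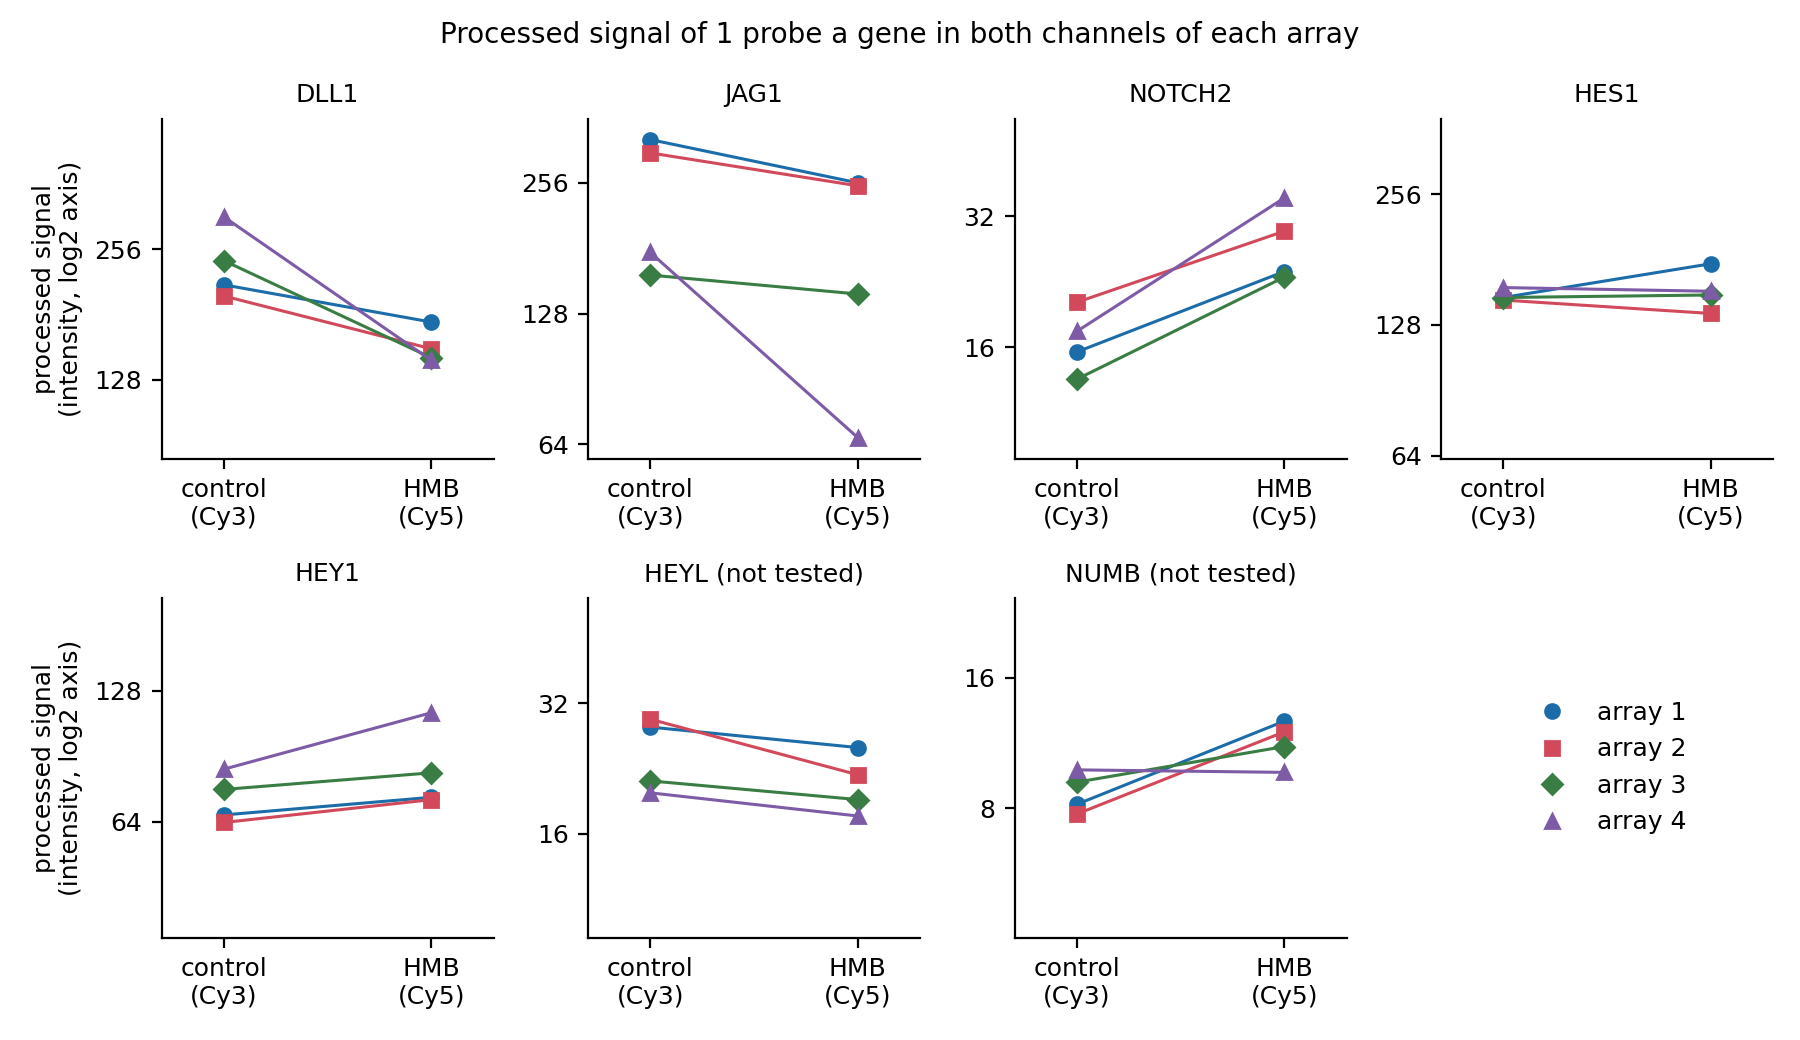
Processed signal (vertical axis, intensity on a log2 scale of equal span in every panel) of 1 probe for each of the 7 genes in control cells (Cy3) and HMB-treated cells (Cy5), with a line for each array. The groups do not overlap for *DLL1* and *NOTCH2*, the line of array 4 falls steeply for *JAG1*, and *HES1* is nearly flat. The share of all tested genes without overlap was not counted, and the filter on dim probes favoured a higher value for *NOTCH2*. Panels are not to be compared for level, since probes differ in how brightly they bind.

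Of the target genes, *HES1*, the best known repressor switched on by Notch, had 1 probe whose bases lie in pieces from 27046771 to 27047079 on chromosome 19.
A_69_P116906: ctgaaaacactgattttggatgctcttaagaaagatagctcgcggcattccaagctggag
It is printed because this target is a readout of the pathway. Its ratios were 0.25, -0.10, 0.02 and -0.03. Array 1 was the highest and the other 3 lay close to 0. In control cells the signal was 148, 146, 148 and 156, and in HMB-treated cells it was 177, 136, 150.0 and 153, so the groups overlapped. The mean of 0.03 ± 0.15 (limma adjusted *P* = 0.783) changed sign without lowess (-0.01) and without array 1 (-0.04), and no direction can be given.

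*HEY1*, a related repressor, had 1 probe by the rule. The ratios were 0.13, 0.17, 0.13 and 0.43 on arrays 1 to 4. HMB-treated cells had the higher signal on each array, by least on arrays 1 and 3 and by most on array 4. The signal was 66.3, 63.7, 75.9 and 84.5 in control cells and 72.8, 71.9, 82.9 and 114 in HMB-treated cells, which overlap. The mean of 0.22 ± 0.14 did not pass the threshold (limma adjusted *P* = 0.0849), and it was 0.11 after normexp and 0.14 without lowess or without array 4. A second probe, which the RefSeq table ties to *HEY1*, gave -0.04, 0.20, 0.25 and 0.61. It was lower on array 1 and higher on the other 3, with a mean of 0.25 ± 0.27 (limma adjusted *P* = 0.134), also short of the threshold.

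*HEYL*, the third target, was too dim to be tested. Its probe was well above background on 3 of 4 arrays in control cells and on 2 in HMB-treated cells, and its ratios were -0.15, -0.43, -0.14 and -0.17. All 4 were below 0, but no fold is given for so dim a probe. *NUMB*, the inhibitor, was not well above background on any array in either channel. Its ratios of 0.64, 0.62, 0.27 and -0.02 lie between signals of 7.76 and 12.7 and are not read as a difference.

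When the 5 probes outside the rule were counted too, a choice made after the values were seen, 8 genes were tested and 4 passed the threshold, *NOTCH2* higher and *DLL1*, *JAG1* and *NOTCH3* lower, where 22.7% of all tested genes passed. *NOTCH2* and *NOTCH3* passed the filter only through their brighter channel, so this count supports nothing either. No probe of *HES1* or *HEY1* passed the threshold. Whether the receptors differed from each other in their response was not tested.

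For *NOTCH2* and *DLL1*, the genes of lowest adjusted *P* among the 5 tested by the rule, the nearest patterns were looked for among 9957 other tested genes, by the root mean square difference of the log2 ratios over the 4 arrays. Nearest to *NOTCH2* were *IL21R* (0.08), *RAB27A* (0.09) and *PRTFDC1* (0.10), none of them dim in either channel. *NOTCH2* itself was dim in control cells and its ratios are only bounded, so these distances are not exact. *RAB27A*, for example, gave 0.50, 0.58, 0.64 and 1.01. Nearest to *DLL1* were *PDLIM2* (0.05), *HBEGF* (0.07), which encodes a growth factor of the EGF family, and *TMOD1* (0.08), which encodes a protein that caps actin filaments. *HBEGF* gave -0.30, -0.35, -0.85 and -1.13, and thus had the same smaller differences on arrays 1 and 2. With 4 arrays, many genes can lie this close, and likeness says nothing of shared control.

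The rest of the pathway was read from 67 further genes listed by role, of which 53 had a probe and 45 were tested. Past the threshold were 8 genes (17.8%, against 22.7% of all tested genes), 4 higher and 4 lower in HMB-treated cells. The median log2 ratio of the 45 was -0.05, between -0.04 and 0.05 on single arrays, and 0.03 for all tested genes. It was 0.01 without array 4. The share was below that of all genes, and nothing in it sets the list apart.

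Among the 9 tested genes of receptor processing, which make the enzymes that cut the receptor, *PSEN2* was lower and *APH1B* higher, a share near the 22.7% of all tested genes. Both encode parts of γ-secretase, the complex that frees the inner part of the receptor. *PSEN2* gave -0.25, -0.61, -0.76 and -0.82, with the smallest difference on array 1 (mean -0.61 ± 0.26, limma adjusted *P* = 0.012). *APH1B* gave 0.25, 0.28, 0.40 and 0.39, a small difference on each array (mean 0.33 ± 0.08, limma adjusted *P* = 0.0159, 0.20 after normexp), and 1 of its 2 probes passed. The subunits *NCSTN* (-0.09), *APH1A* (0.06) and *PSENEN* (-0.13, which became 0.05 without lowess) and the proteases *ADAM10* (0.13) and *ADAM17* (-0.23) were not past the threshold.

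Of the 4 tested genes of receptor glycosylation, *POFUT1* and *POGLUT1*, which encode enzymes that add fucose and glucose to the receptor's outer part, were higher, where 11.5% of all tested genes were. *POGLUT1* gave 0.41, 0.39, 0.61 and 0.80, higher on all 4 arrays (mean 0.55 ± 0.19, limma adjusted *P* = 0.00907), although 1 of its 2 probes passed. *POFUT1* gave 0.25, 0.28, 0.31 and 0.59, with array 4 the highest (mean 0.36 ± 0.16, limma adjusted *P* = 0.0234). The fringe genes *LFNG* (-0.05) and *RFNG* (0.24, limma adjusted *P* = 0.0708) did not pass.

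In the nuclear complex and its co-repressors 1 of 14 tested genes passed, against 22.7% of all tested genes. It was the coactivator *MAML1*, at 0.24, 0.24, 0.27 and 0.43 (mean 0.30 ± 0.09, limma adjusted *P* = 0.0227). *RBPJ*, the DNA-binding partner of the receptor, gave -0.37, -0.22, -0.03 and 0.41, which spans 0. Its mean of -0.05 became 0.10 without lowess. *MAML2*, another Mastermind gene, had 2 probes of opposite sign, of which the dimmer passed the threshold and the brighter did not (0.21, limma adjusted *P* = 0.137).

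Of the 11 tested genes for ubiquitin ligases, endocytosis and turnover 3 were lower and 0 higher, by limma at the adjusted threshold, where 11.2% of all tested genes were lower and 11.5% higher. *DTX3L*, 1 of the 3, passed the filter only through the control channel, which favoured a lower value. *LNX1*, a ligase known to act on NUMB, gave -0.63, -0.50, -0.65 and -0.96 (mean -0.69 ± 0.19, limma adjusted *P* = 0.00506). It was lower on all 4 arrays and in both of its probes. *FBXW7*, which marks the active receptor for breakdown, gave -0.38, -0.34, -0.29 and -0.07, a small difference with array 4 close to 0 (mean -0.27 ± 0.14, limma adjusted *P* = 0.0429). *DTX3L*, of the Deltex family, gave -1.72, -0.58, -2.41 and -0.79 (mean -1.37 ± 0.85, limma adjusted *P* = 0.0227). HMB-treated cells were well above background on 1 of 4 arrays for this probe. Its ratios are thus only bounded, their mean and SD are not exact, and the size of the difference is open. After normexp its mean was -0.54 and no longer past the threshold (limma adjusted *P* = 0.0531).

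Ligands and targets beyond the 10 genes were mostly dim or had no probe. *DLL4* and *NOTCH4* were not well above background in either channel on any array. Of the other targets *HEY2* gave -0.59, -0.38, -0.28 and 0.00 (mean -0.31 ± 0.25, limma adjusted *P* = 0.0715) and *HES7* lay at 0.03 (-0.01 after normexp), neither past the threshold, although 1 of the 5 probes of *HEY2* was past it. The collagen genes tied to Notch in quiescent satellite cells, *COL5A2* (-0.25, which became 0.28 without lowess), *COL6A1* (0.13) and *COL6A2* (0.21), were not past it either.

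Most calls in this list were lost when single arrays were left out, while most means moved little. That of *DTX3L* moved from -1.37 to -1.03 without array 3 and to -1.64 without array 2. There were 4 calls without array 2 and 3 without array 3. *FBXW7* was lost without arrays 1, 2 or 3 (limma adjusted *P* = 0.0996, 0.175 and 0.148), *POFUT1* and *APH1B* without array 2 (0.0765 and 0.0694, limma adjusted *P*) or array 3 (0.0783 and 0.0784), *MAML1* without array 2 (limma adjusted *P* = 0.0884) or array 3 (0.086), *DTX3L* without array 1 (0.0775) and *PSEN2* without array 3 (0.0507). *POGLUT1* and *LNX1* stayed past the threshold with any 1 array left out. No gene of this list passed with the per-probe test, in which *POGLUT1* and *LNX1* had adjusted *P* = 0.0864 and 0.0731. With no filter on dim probes *POGLUT1*, *PSEN2*, *POFUT1*, *FBXW7* and *DTX3L* were lost (limma adjusted *P* = 0.052, 0.0687, 0.073, 0.0908 and 0.123). With separate channels *POFUT1*, *MAML1* and *FBXW7* were lost (limma adjusted *P* = 0.213, 0.142 and 0.192). *FBXW7* was also lost without lowess (limma adjusted *P* = 0.0504).

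**Figure D3:**
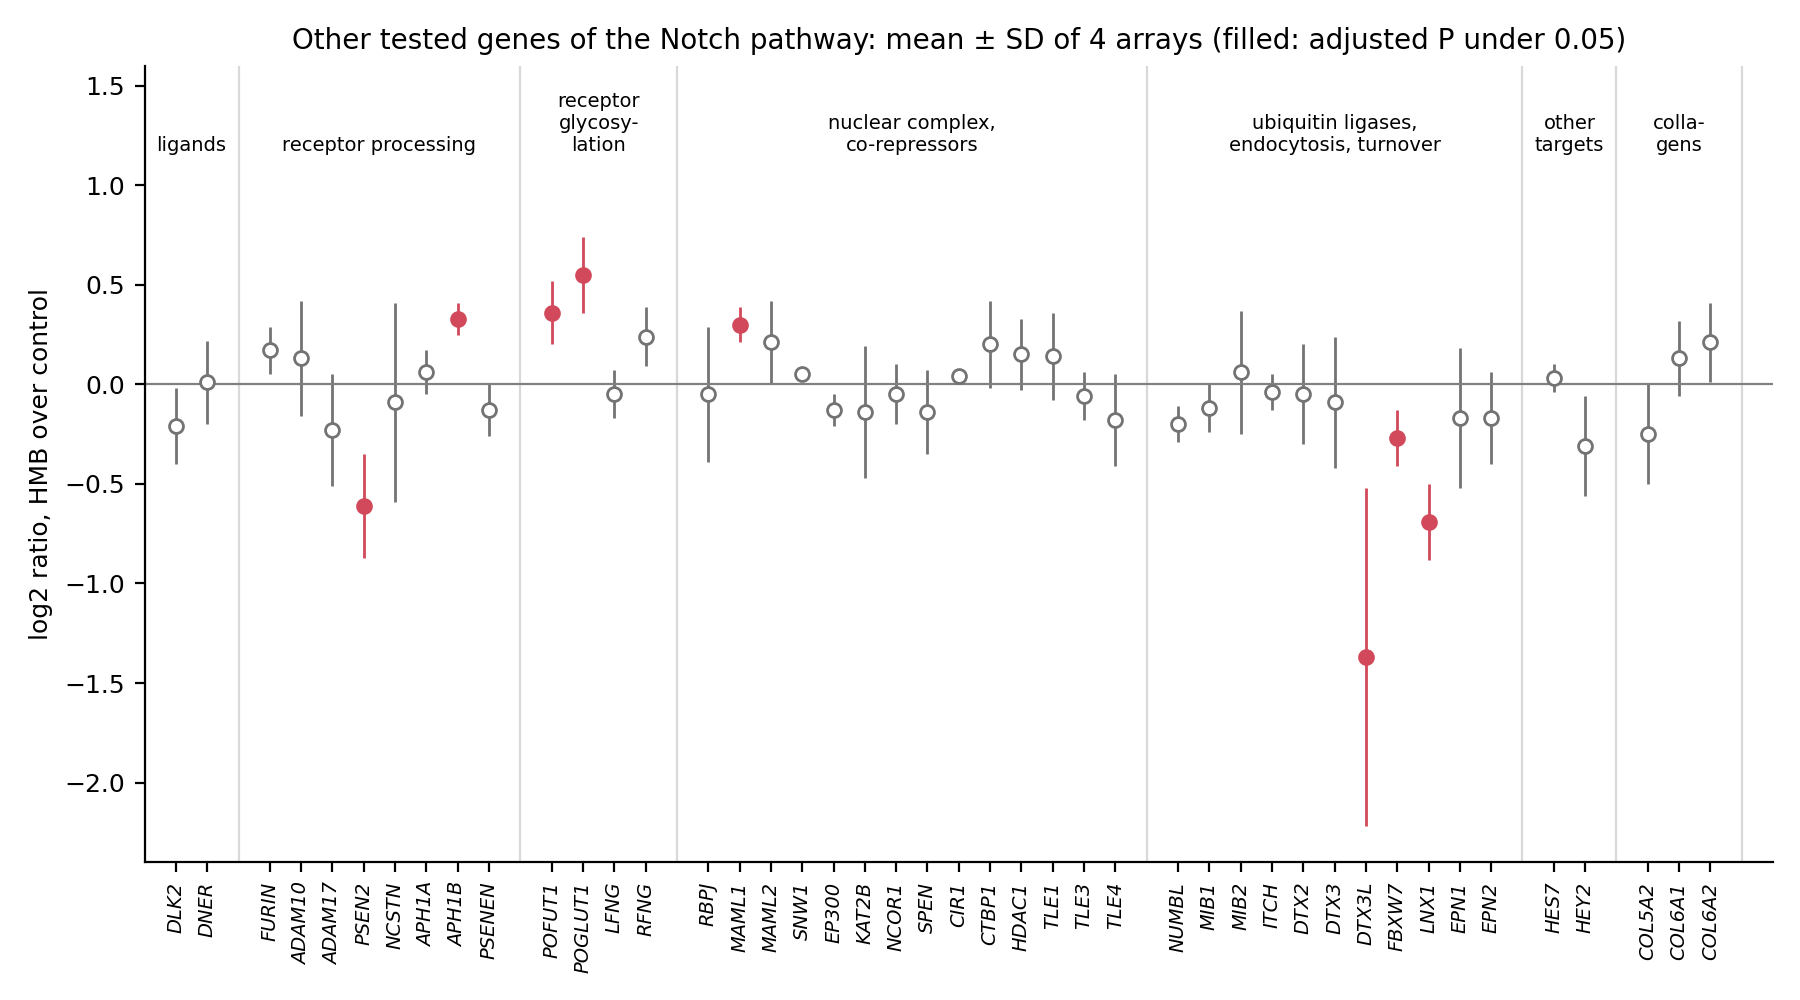
Mean log2 ratio of HMB over control (vertical axis) with bars of 1 SD over 4 arrays for 44 of the 45 tested genes of the wider pathway, grouped by role (horizontal axis). Filled points passed the adjusted threshold of 0.05. They are 4 higher and 4 lower, and the widest bar is that of *DTX3L*.

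These RNA samples are bulk samples, in which fewer cells of a type and less RNA per cell cannot be told apart. Of 8 genes listed as satellite cell and myoblast markers, not all of them particular to these cells, 5 were tested. All 5 were lower past the threshold, where 11.2% of all tested genes were lower. *MYF5*, an early myogenic regulator, gave -0.82, -0.88, -1.17 and -1.15 (mean -1.01 ± 0.18, limma adjusted *P* = 0.00157). The summed signal of the 5, as log2, was 15.46, 15.41, 15.51 and 15.52 in control cells and 15.08, 14.55, 14.47 and 14.41 in HMB-treated cells. Each HMB value lay below each control value, and the brightest probe was that of *DES*. In control cells on array 1 the signal was 26896 for *DES*, 11509 for *CHRNG* and 5965 for *NCAM1*, against 429 for *MYF5* and 183 for *MYOD1*. The sum thus follows the brighter genes and is not read as an amount of satellite cells and myoblasts. Without lowess the mean of *DES* went from -0.98 to -0.62 and that of *CHRNG* from -0.53 to -0.34. Of the 2 probes of *MYOD1* 1 passed the threshold. *PAX7*, the defining marker of satellite cells, had no probe, and *PAX3* was well above background in control cells on 1 array only. The part of these markers in the Notch results was not tested.

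Of 10 tested markers of myocytes and myotubes 9 were lower past the threshold (11.2% of all tested genes), although *ACTC1*, the brightest, turned from -0.38 to 0.01 after normexp and to 0.69 without lowess. *MYOG*, a regulator of differentiation, gave -0.20, -0.31, -0.54 and -0.64 (mean -0.42 ± 0.20, limma adjusted *P* = 0.0222). Like *DLL1*, it differed less on arrays 1 and 2 than on arrays 3 and 4. The ratios of all unmarked spots also spread more widely from array to array, with SD 0.433, 0.461, 0.479 and 0.539 on arrays 1 to 4. The order is therefore not read as a tie between *MYOG* and *DLL1*. The summed log2 signal was 18.48, 18.49, 18.66 and 18.72 in control cells and 18.18, 17.69, 17.75 and 17.73 in HMB-treated cells, with no overlap. Besides *ACTC1*, other bright genes of this sum differed less without lowess, such as *MYH3* (-1.11, then -0.37). Whether these markers account for any Notch result was not tested.

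Of 7 tested fibroblast markers 2 were higher (11.5% of all tested genes), *PDGFRA* at 1.09, 1.38, 1.46 and 2.19 (mean 1.53 ± 0.47, limma adjusted *P* = 0.00358, 0.89 after normexp) and *FAP* (0.42, limma adjusted *P* = 0.0185). *COL1A2*, the brightest, and *COL3A1* were not past the threshold, and their means of -0.20 and -0.21 became 0.86 and 0.75 without lowess. Of the 9 probes of *COL1A2* 2 were past the threshold, as was 1 of the 2 of *DCN*, and of the 7 of *COL3A1* 2 had the sign of its mean. The summed log2 signal was 18.32, 18.22, 18.36 and 18.71 in control cells and 18.58, 18.12, 18.23 and 18.24 in HMB-treated cells, so it overlapped between the groups. It was higher in HMB-treated cells on array 1 and lower on the other 3. The cultures had been preplated to lower the number of fibroblasts, and the part of fibroblast markers in the Notch results was not tested.

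Pericyte and smooth muscle cells are known to carry NOTCH3. Of 4 tested markers of these cells 2 were lower (11.2% of all tested genes). They were *MCAM*, with a floored fold of 1.70 (limma adjusted *P* = 0.00317), and *MYH11*, with a floored fold of 1.81 (limma adjusted *P* = 0.0368). Their HMB signal was well above background on 2 and 3 of 4 arrays, so they passed the filter only through the control channel, which favoured lower values. After normexp their means were -0.38 and -0.45. *PDGFRB* (-0.01) and *CSPG4* (0.06), the brightest, were not past the threshold, and *RGS5* and *ABCC9* were not well above background on any array. *KCNJ8* was well above background on 1 array in each channel and was not tested. The summed log2 signal was 8.85, 8.64, 8.18 and 8.22 in control cells and 8.70, 8.34, 8.13 and 7.99 in HMB-treated cells, lower with HMB on each array but overlapping between the groups. The sum includes *MCAM* and *MYH11*, for which the filter favoured lower values, so its direction is not read. *PDGFRB* gave 0.01, -0.11, 0.07 and -0.02, and *CSPG4* gave 0.13, 0.00, 0.11 and 0.01. The part of these markers in the *NOTCH3* result was not tested.

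Endothelial cells are known to carry Notch ligands. Of 7 of their markers with a probe only *ERG* was tested (0.03, limma adjusted *P* = 0.885). It was well above background on all 4 arrays in both channels. *CDH5* was well above background in control cells on 1 array only, and *PECAM1*, *KDR*, *TEK*, *TIE1* and *VWF* were not well above background on any array. The log2 signal of *ERG* alone was 8.40, 7.99, 7.66 and 7.67 in control cells and 8.22, 7.83, 8.13 and 7.63 in HMB-treated cells, which overlap. Of the leukocyte markers *CD14*, the brightest (0.02, and -0.03 after normexp), and *CD68* (-0.29, limma adjusted *P* = 0.12) were tested and not past the threshold. Their summed log2 signal overlapped likewise, at 12.43, 12.28, 12.24 and 12.46 in control cells and 12.63, 12.32, 12.24 and 12.28 in HMB-treated cells. *PTPRC*, the defining leukocyte marker, had no probe. *CSF1R* was well above background in control cells on 1 array only. *ITGAM*, *CD3E* and *CD79A* were not well above background on any array, nor were the adipocyte markers *ADIPOQ*, *PPARG* and *FABP4*. The part of these markers in the Notch results was not tested.

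**Figure D4:**
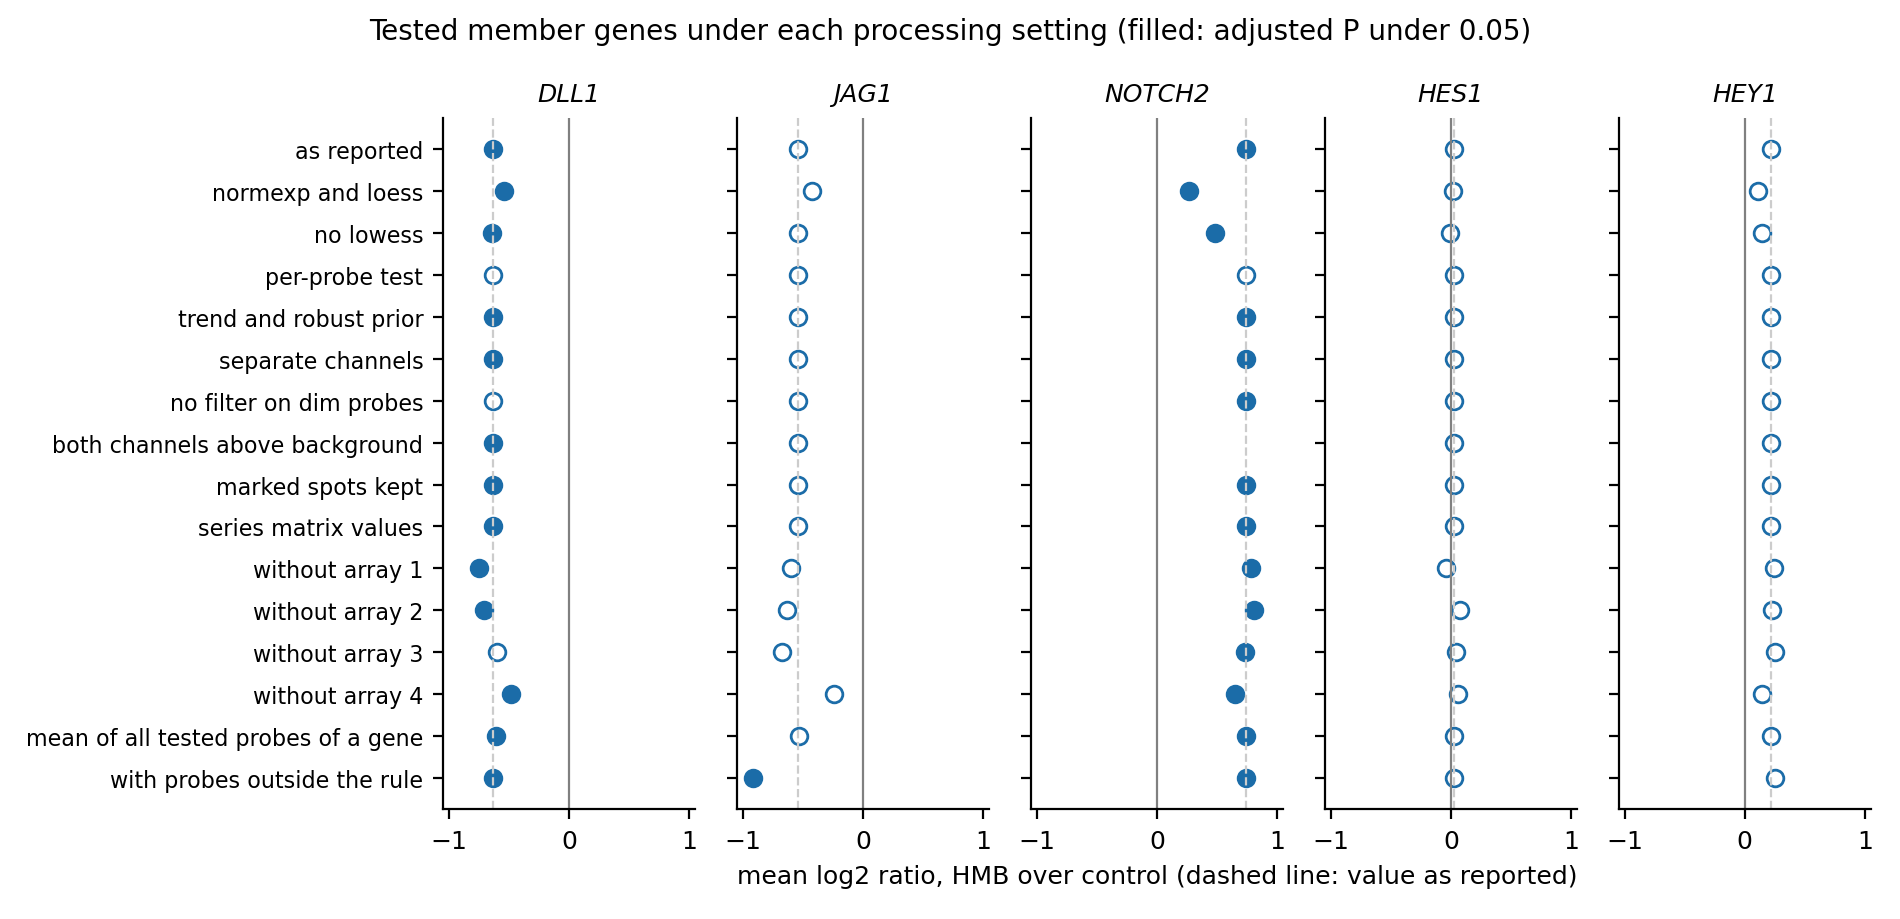
Mean log2 ratio (horizontal axes) of the 5 tested genes under each setting of the processing (vertical axis), with filled points past the adjusted threshold of 0.05 and a dashed line at the value as reported. *DLL1* stays below 0 and *NOTCH2* above 0 in every setting drawn that gives a value, with *NOTCH2* not tested when both channels had to be above background. *HES1* crosses 0, and the settings that differ only in how replicate spots enter the filter are not drawn.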

How the data were processed

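The authors scanned 4 two-colour arrays with Feature Extraction, version 10.10.1.1 per the file headers, where the paper names another. The deposited ratios are log10 of Cy5 (HMB) over Cy3 (control) after the authors' linear and lowess normalisation, and the deposited signals are intensity values, raw or processed. Further deposited columns hold marks of 0 or 1 for background, outlying and saturated spots. The value table of the series holds the same log10 ratios, with a largest difference of 0 and a median of 0.0000 in each column. Positions are those of the array design, on EquCab1.

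Log10 ratios were multiplied by 3.32. Control spots (1417 an array) and spots marked non-uniform or outlying (11, 17, 32 and 15) were left out, and the remaining spots of each probe were averaged. The test needed at least 3 values and 1 channel that was well above background on each of the 4 arrays, which 16220 probes did not reach. For probes with several spots, all spots had to be above background. This reading was taken after it and 4 others had been run, because it gave the count of tested probes known from an earlier analysis of these data. Over the 5 readings between 27371 and 27387 probes were tested and between 6254 and 6258 passed the threshold. When an array was left out, the filter on all 4 arrays replaced one on the remaining arrays that had been run first.

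Means were tested against 0, two-sided, with limma 3.58.1 in R 4.3.3, and *P* was adjusted after Benjamini and Hochberg across every tested probe. A gene is its tested probe of highest mean intensity. The array files named 25964 probes, the RefSeq gene table of a thoroughbred assembly, used for names only, named 2167 more, and 15472 had no symbol. Tables and figures used Python 3.11.15, numpy 2.4.6, pandas 2.3.3 and matplotlib 3.10.9. The fit was tested on simulated data.

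The genes named are the 10 Notch genes, the genes of the wider list past the threshold and the best known of each role, the brightest and defining markers, and the 3 genes nearest to each of the 2 Notch genes of lowest adjusted *P* among those tested by the rule. The members and lists were chosen with earlier results of these data known. Alternatives were normexp (offset 50) with loess, no lowess, the per-probe test of the paper's supplement, separate channels, a robust prior with an intensity trend, the value table, dim probes not filtered out, marked spots kept, both channels required above background, each array left out, the mean of a gene's probes and, added after values were seen, the probes outside the rule and the other readings of the filter.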

Additional observations from a re-analysis of the deposited data

Results flagged for a closer look

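Of 60 probes whose 4 ratios were examined, 7 had an array far from the other 3, where chance gives about 1 in 20. On array 4 the *JAG1* probes A_69_P024206 and A_69_P024207, which overlap and are not independent, stood at -1.42 and -1.44, against -0.33 to -0.15 and -0.24 to -0.19 on the other arrays. *HEY1* stood at 0.43 on array 4, against 0.13 to 0.17. In the wider pathway *MAML1* stood at 0.43 on array 4 (0.24 to 0.27 on the others), *ITCH* at -0.17 on array 4 (-0.01 to 0.03), *NCSTN* at 0.65 on array 1 (-0.41 to -0.26) and *APH1A* at 0.21 on array 1 (0.00 to 0.01). The reason for these distances was not tested.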

How the results depend on the processing

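Over the settings tried, the 5 tested Notch genes gave 114 values beside those reported, of which 105 kept their direction and side of the threshold, 5 lost a call, 1 gained one (*JAG1* with the probes outside the rule, -0.91) and 3 changed sign. The changes of sign were those of *HES1*, to -0.01 without lowess and -0.04 without array 1 under either filter, and the *JAG2* probe also changed, to -0.06 without lowess. *DLL1* and *NOTCH2* lay between -0.75 and -0.48 and between 0.27 and 0.81, with adjusted *P* between 0.0161 and 0.148 and between 0.00425 and 0.0738 by limma or, for the highest of each, by the per-probe test. That test gave 768 probes, 0 Notch genes (2 with an unadjusted *P* under 0.05, against 4 with limma unadjusted) and 0 genes of the wider list (10 unadjusted, against 13). With no filter on dim probes there were 3690 probes, 1 Notch gene and 3 wider genes. With both channels above background, 1 Notch gene passed and the median of the 4 left was -0.25, as *NOTCH2* had no value. *DTX3L* and the *NOTCH3* probe had none either. Counting the probes outside the rule gave 4 Notch genes. Taking the channels without pairing within arrays (no replicate block) gave 2226 probes and 5 wider genes and ended no call of *DLL1* or *NOTCH2*.

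With arrays left out, under either filter, the count of probes ranged from 2569 to 4981, that of Notch genes from 1 to 2 and that of wider genes from 3 to 9. The median of the Notch genes ranged from -0.09 to 0.08 and that of the wider genes from -0.07 to 0.01. The count fell to 2569 probes and 4 wider genes without array 2, and to 2729 probes, 1 Notch gene and 3 wider genes without array 3, or to 2573 and 2705 probes with the filter on the remaining arrays. Without array 4 the wider median was 0.01, and with the filter on the remaining arrays *HEYL* entered and the Notch median was -0.09. The cause of these changes was not tested. Signal over background limits *NOTCH2*, *HEYL*, *NUMB*, *DTX3L* and the *NOTCH3* probe.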
